A study of Mus musculus with 10 samples.

Results

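Type I interferon-stimulated genes of the mouse left ventricle were examined: 38 genes taken by symbol from the deposited count table, out of 55385 genes in all. All 38 were found in the table and all 38 passed the filter on low counts. RNA was sequenced from left ventricles of mice labelled C56Bl6. The 5 Control libraries came from mice on a standard diet, and the 5 HFpEF libraries from mice given High-Fat food and L-NAME, for 6 weeks in each group. L-NAME inhibits nitric oxide synthases, and the combined regimen is used as a model of heart failure with preserved ejection fraction, or HFpEF. The labels name no mutant allele or transgene in either group, and age and sex are not given in the sources used here. Whether every library is a different animal is not stated, so a p-value reflects the library-to-library spread alone, which may be technical.

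Type I interferons are secreted when a cell detects viral or misplaced nucleic acid. They bind a shared receptor whose kinases activate STAT2, and STAT2 and IRF9 belong to the transcription factor ISGF3, which binds an interferon-stimulated response element in the promoters of its targets. Interferon-stimulated genes encode sensors of foreign RNA, enzymes that degrade or edit it, proteins that block viral entry, translation or budding, and the factors of the pathway itself. Many of them are transcribed at a low level without infection, in muscle, endothelial and immune cells alike.

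The core of the response element (GAAA, any 2 bases, then GAAA; TTTC, any 2 bases, then TTTC where it lies on the other strand) was searched in promoter sequences from RefSeq (GRCm38.p6), which run from 250 bases before a gene's start to 50 after it. These promoters were searched because their genes are grouped by this control. Promoters were given for 28 of the 38 genes. Of these, 11 held at least 1 match on either strand (39.3%), against 1079 of all 27025 genes in the promoter table (3.99%). Of the 10 genes without an entry, Mx2, Parp14 and Ifi27l2a are described below, and the others were Parp9, Dhx58, Zbp1, Usp18, Mx1, Rtp4 and Oas2. The promoters of Stat2 and Bst2, both of which were lower in HFpEF, and that of Isg15, with 3 overlapping matches, are shown 5′ to 3′ on the strand of the gene. Capitals mark the matches.
Stat2 (chr10:128270248-128270547, plus strand): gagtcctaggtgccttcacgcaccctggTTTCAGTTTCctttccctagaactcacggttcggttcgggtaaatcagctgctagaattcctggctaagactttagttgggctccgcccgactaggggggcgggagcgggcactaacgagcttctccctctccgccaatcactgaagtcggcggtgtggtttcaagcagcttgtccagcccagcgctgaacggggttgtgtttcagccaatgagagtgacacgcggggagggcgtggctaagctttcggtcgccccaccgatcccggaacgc
Bst2 (chr8:71537423-71537722, minus strand): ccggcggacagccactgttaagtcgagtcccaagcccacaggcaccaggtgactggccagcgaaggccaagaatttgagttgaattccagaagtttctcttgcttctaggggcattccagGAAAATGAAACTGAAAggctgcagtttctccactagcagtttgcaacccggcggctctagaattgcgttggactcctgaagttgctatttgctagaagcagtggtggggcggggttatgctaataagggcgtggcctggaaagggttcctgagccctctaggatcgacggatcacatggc
Isg15 (chr4:156200769-156201068, minus strand): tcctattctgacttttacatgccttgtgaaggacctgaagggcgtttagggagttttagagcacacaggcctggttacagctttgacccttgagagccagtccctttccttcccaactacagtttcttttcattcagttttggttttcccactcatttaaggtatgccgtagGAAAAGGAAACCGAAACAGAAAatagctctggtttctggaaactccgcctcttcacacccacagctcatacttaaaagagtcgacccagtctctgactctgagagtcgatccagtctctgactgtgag
Distances are counted from the RefSeq start at 0, with minus for bases before it. The match of Stat2 began at -222 on the other strand, the overlapping matches of Bst2 began at -130 and -124, and those of Isg15 at -78, -72 and -66.

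In the other 8 genes with a match, the stretch around the matches is shown to let the sites be compared, with capitals as above.
Ifit1 (from -114 to -66): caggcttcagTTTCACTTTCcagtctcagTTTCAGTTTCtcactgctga
Ifit3 (from -166 to -103): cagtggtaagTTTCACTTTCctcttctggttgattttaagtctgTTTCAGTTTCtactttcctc
Oas1a (from -30 to 5): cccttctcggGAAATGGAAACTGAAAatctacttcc
Oas3 (from -85 to -56): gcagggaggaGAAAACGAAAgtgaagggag
Rsad2 (from -130 to -101): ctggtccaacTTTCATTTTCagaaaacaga
Eif2ak2 (from 8 to 37): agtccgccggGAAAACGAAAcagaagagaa
Ifih1 (from 22 to 49): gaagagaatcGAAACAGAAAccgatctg
Trim30a (from -46 to -17): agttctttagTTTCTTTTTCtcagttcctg
Ifit1 and Ifit3 each held a pair of separate matches upstream of the start, Oas1a held a pair that overlapped, and in Ifih1 and Eif2ak2 the match lay after the start. Trim30a has a second RefSeq start, and the match near it lay after that start, from 2 to 11. Of the 5 genes with a promoter that were called lower in the comparison below, 2 held a match, and of the 23 that were not called, 9 did. A match describes the letters in this window and is not a measured binding site.

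**Figure D1:**
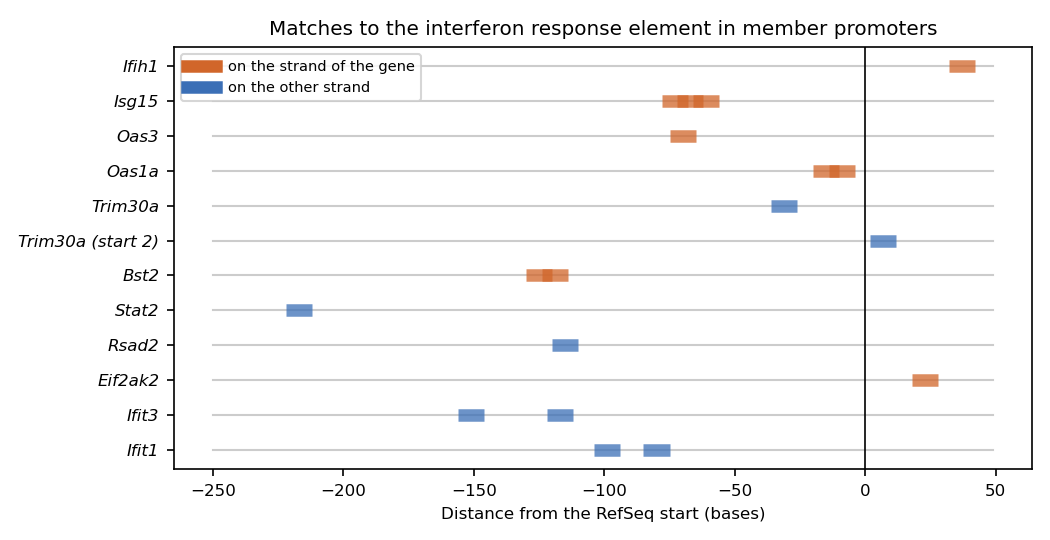
Positions of matches to the core of the response element, on either strand, in promoters of 11 interferon-stimulated genes. The x axis is the distance in bases from the RefSeq start, each grey line is 1 promoter window (Trim30a has 2 starts), and most matches lie before the start.

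Total counts per library ran from 31286355 to 46108710, with Control 4 and Control 5 the deepest (exact permutation test of the groups, two-sided p = 0.222). Mitochondrial transcripts took 33.6% to 37.5% of the counts in Control and 36.2% to 38.5% in HFpEF (exact permutation test, two-sided p = 0.0635). With these transcripts left out, the number of interferon-stimulated genes called lower was 8, as with them. The 38 genes together took 0.0398% to 0.0635% of the counts of a library, or 12641 to 29257 counts. Heart muscle genes were the leading markers, as the label says (Myh6, 12200 CPM in Control, 11900 in HFpEF). CPM are counts scaled to a common library size after TMM adjustment, and fold changes are log2 values of HFpEF against Control with their standard error (SE).

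HFpEF 2 stood apart from the other HFpEF libraries for these genes. It was the highest of the 5 HFpEF libraries for 32 of the 38, and its median deviation from the Control mean was 0.05 on the log2 scale, against -0.24 to -0.41 in the other HFpEF libraries. Among Control libraries, Control 5 was highest for 25 of the 38 and Control 4 lowest for 21, with median deviations of 0.14 and -0.14. Over all genes tested the median deviation of every library lay between -0.01 and 0.01. Values without HFpEF 2 are given where its removal changed a call or moved a value by over 1.5 times. HFpEF 2 was picked out by the values of these same genes, so its removal lowers the HFpEF mean wherever it was highest. Calls made without it describe its weight and are not separate evidence of a fall.

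**Figure D2:**
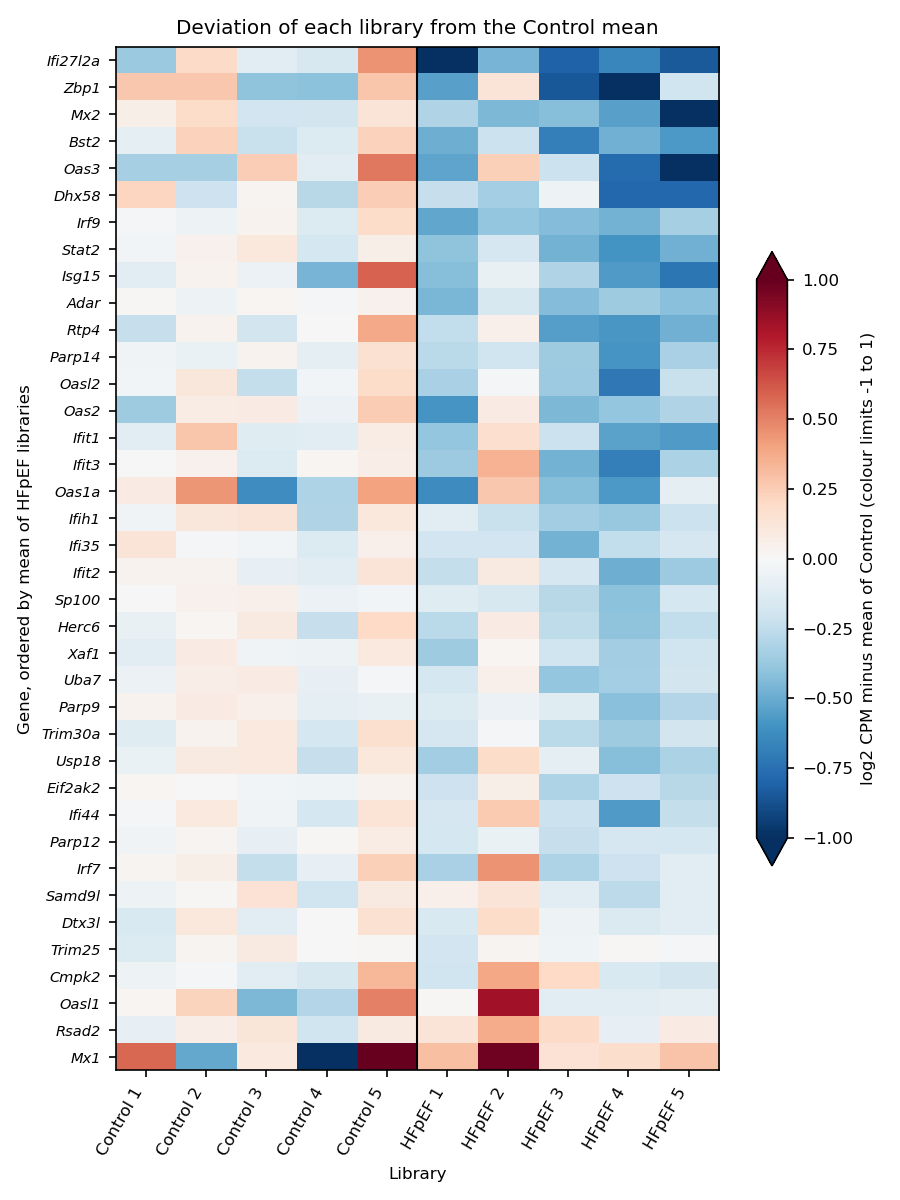
Deviation of log2 CPM from the mean of the Control libraries, for 38 genes (rows, ordered by the mean of the HFpEF libraries) and 10 libraries (columns). The columns of HFpEF 1, 3, 4 and 5 are mostly below the Control mean, HFpEF 2 is mixed, and Control 5 is mostly above it.

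In the hearts of the HFpEF group, 8 of the 38 interferon-stimulated genes were lower than in Control, 0 were higher and 30 were not called. The genes that fell were the ISGF3 partners Stat2 and Irf9, the RNA editor Adar, the ADP-ribosyltransferase Parp14, the restriction factors Bst2, Mx2 and Sp100, and Ifi27l2a. Over all 18491 genes tested, 2.09% were called lower and 3.24% higher at an adjusted p below 0.05 (edgeR's quasi-likelihood test, Benjamini-Hochberg adjustment over all genes tested). The changes were small: the median log2 fold change of the 38 was -0.24, against -0.01 over all genes tested, and 34 of the 38 had a value below 0 (89.5%), against 52.8% of all genes tested. An unadjusted p below 0.05 with a lower value was reached by 24 of the 38, against 9.91% of all genes tested, and 0 of the 38 reached it with a higher value. For 7 of the 38, or 18.4%, all HFpEF libraries lay below all Control libraries, which was so for 2.93% of all genes tested; for 0 of the 38 all HFpEF libraries lay above all Control libraries (3.88% of all genes tested).

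The summed level of 10 macrophage markers was 151 to 244 CPM among Control libraries and 123 to 162 CPM among HFpEF libraries. All 10 fold changes were below 0, edgeR called 0 of them, and none was at 0 counts. An unadjusted p below 0.05 with a lower value was reached by 7 of the 10, against 9.91% of all genes tested. For 2 of the 10 (20%) all HFpEF libraries lay below all Control libraries, against 2.93% of all genes tested. The part of the macrophage markers in the result was not tested. In bulk tissue fewer cells of a type and less RNA per cell cannot be told apart.

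Without HFpEF 2 the median log2 fold change was -0.30. The number of genes called lower was then 16 of 38, against 1.86% of all genes tested in that fit. Those added were Eif2ak2, Ifit1, Ifit2, Ifit3, Oas2, Oasl2, Rtp4, Uba7 and Xaf1, while Mx2 was no longer called. Leaving out Control 2, HFpEF 3 or HFpEF 4 gave 5 each, against 1.27%, 1.08% and 1.21% of all genes tested. The genes were the same each time: Stat2, Irf9, Adar, Parp14 and Ifi27l2a. These 5 kept their call in each of the 10 fits with 1 library removed and in each of the 9 other settings tried; DESeq2 and voom called the same 8 genes as edgeR and 0 higher.

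**Figure D3:**
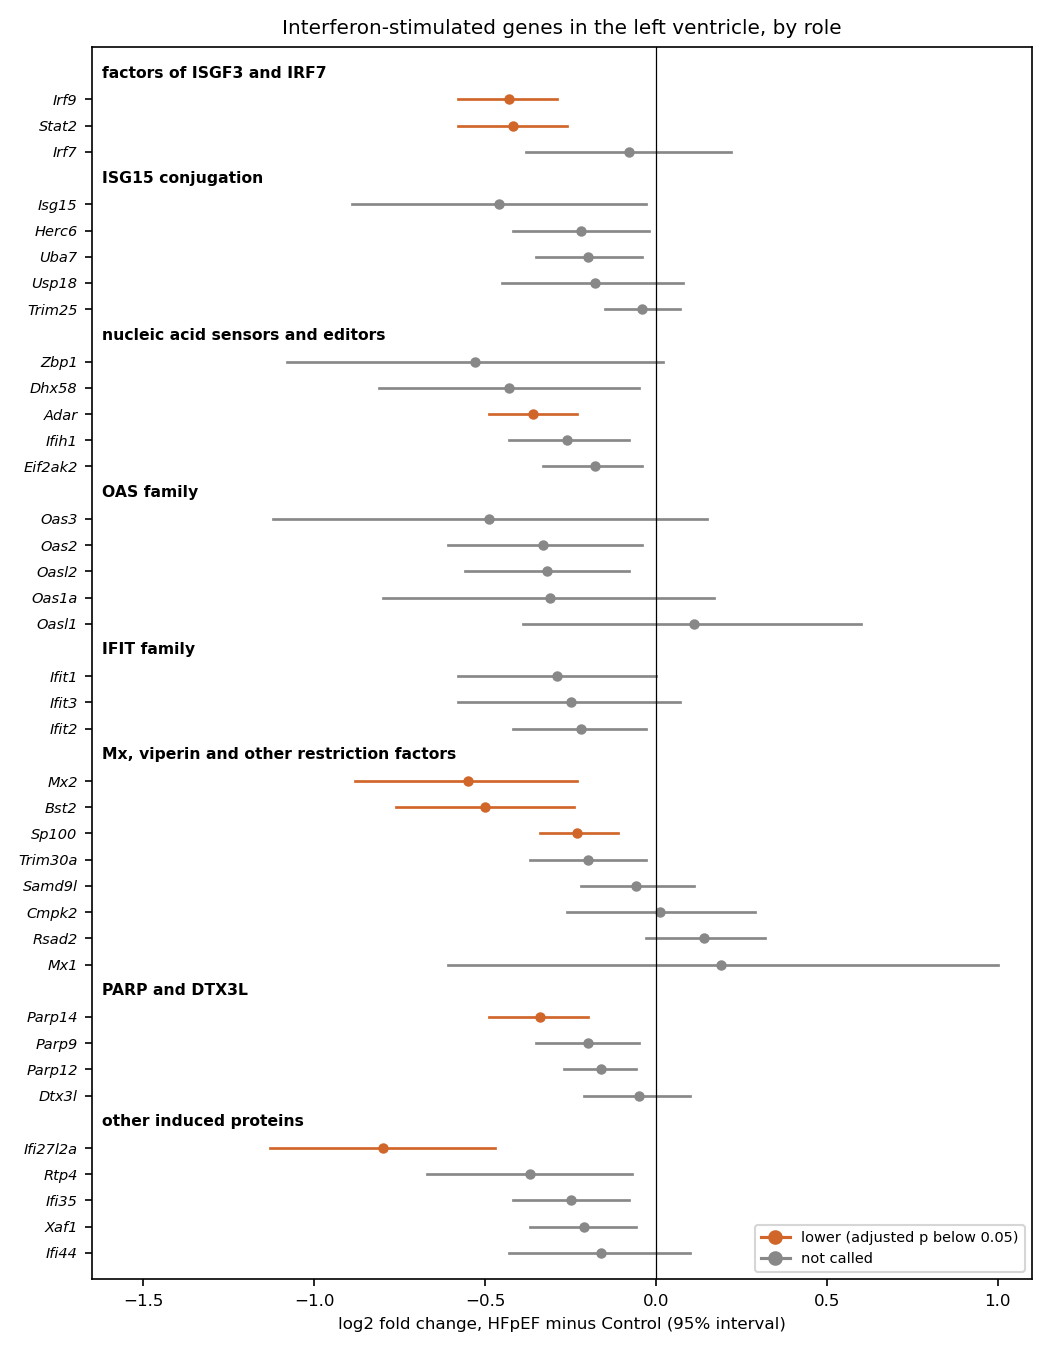
Log2 fold change (HFpEF minus Control, x axis) with its 95% interval for the 38 genes, grouped by role. Orange marks the 8 genes called lower; Ifi27l2a lies farthest to the left at -0.80 and Mx1 farthest to the right at 0.19, with a wide interval.

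Of the 3 STAT and IRF factors among the 38 genes, 2 fell. STAT2 and IRF9 are the parts of ISGF3 that are peculiar to type I and type III interferon signalling. Irf9 (chromosome 14, 55603571 to 55610030, plus strand; coordinates here and below are those of GENCODE M21 on mm10) measured 15, 14.7, 15.6, 13.8 and 17.3 CPM in Control 1 to 5 and 10.6, 11.7, 11.3, 11 and 12.1 CPM in HFpEF 1 to 5. All HFpEF libraries lay below all Control libraries. Its log2 fold change was -0.43 ± 0.07 (SE, adjusted p = 0.00168), and it was the member with the smallest adjusted p. Irf9 shares 2.28% of its exonic bases with Rnf31 on the same strand.

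Stat2 (chromosome 10, 128270559 to 128292849, plus strand) measured 22.9, 24.1, 25.2, 20.7 and 24.4 CPM in Control 1 to 5. In HFpEF 1 to 5 it measured 17.7, 20.8, 16.9, 15.5 and 16.8 CPM. HFpEF 2 reached the level of Control 4, the lowest Control library, so the groups touched, and the other HFpEF libraries were lower. The log2 fold change was -0.42 ± 0.08 (SE, adjusted p = 0.00502).

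Irf7, the factor that amplifies interferon production once it is induced, was not called: 6.42 ± 0.785 in Control against 6.08 ± 1.51 CPM in HFpEF (SD, n = 5), with a log2 fold change of -0.08 and a 95% interval from -0.38 to 0.22. HFpEF 2 had the highest Irf7 value of all libraries (8.73 CPM), and the other HFpEF libraries lay between 5.10 and 5.90 CPM. Without HFpEF 2 the log2 fold change of Irf7 was -0.25 (adjusted p = 0.187), and without Control 5 it was -0.01.

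ISG15 is a ubiquitin-like protein that is joined to other proteins by the activating enzyme UBA7 and by ligases such as HERC6 and TRIM25, and removed by USP18, which also restrains the receptor. Of these 5 genes 0 were called by edgeR, with 3 at an unadjusted p below 0.05, and all 5 log2 fold changes were below 0. Uba7 stood at 28.1 ± 1.42 in Control against 24.5 ± 2.99 CPM in HFpEF (SD, n = 5), a log2 fold change of -0.20 ± 0.07 (SE, adjusted p = 0.128). Without HFpEF 2, Uba7 was called at -0.27 (adjusted p = 0.0239). Herc6, which shares 13.7% of its exonic bases with Gm45193 on the same strand, went from 14.6 ± 1.63 to 12.5 ± 1.65 CPM (-0.22 ± 0.09, and -0.30 without HFpEF 2, adjusted p = 0.0576). Trim25 was nearly level, with 40.0 ± 2.26 and 38.9 ± 2.31 CPM and a 95% interval of the log2 fold change from -0.15 to 0.07.

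Isg15 itself was a low-count gene here, with 0.865 to 2.19 CPM over the libraries and Control 5 the highest. Its log2 fold change of -0.46 had a 95% interval from -0.89 to -0.03 and did not pass the adjustment (adjusted p = 0.209). It was -0.25 without Control 5 and -0.57 without Control 4. Usp18 stood at 3.6 ± 0.357 and 3.16 ± 0.579 CPM (-0.18 ± 0.12), and its log2 fold change without HFpEF 2 was -0.29 (adjusted p = 0.176).

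Among the sensors and editors of nucleic acids, Adar fell and the other 4 were not called. ADAR edits adenosine to inosine in double-stranded RNA, which keeps the cell's own RNA from being taken for viral RNA. Adar (chromosome 3, 89715022 to 89753446, plus strand) measured 22.9, 21.9, 23.1, 22.4 and 23.5 CPM in Control 1 to 5, a narrow range. It measured 16.6, 20.4, 16.8, 17.8 and 17.0 CPM in HFpEF 1 to 5, all below the lowest Control library, with HFpEF 2 nearest to it. The log2 fold change was -0.36 ± 0.06 (SE, adjusted p = 0.00255). Exons of Adar overlap the gene Chrnb2 on the opposite strand, with 16.8% of its exonic bases shared with other genes, and no source used here gives the strand setting of the counts.

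Ifih1, which encodes the long-RNA sensor MDA5, stood at 16.9 ± 1.99 in Control against 14.1 ± 1.06 CPM in HFpEF (SD, n = 5; log2 fold change -0.26 ± 0.08, adjusted p = 0.0824). Ifih1 was called once Control 4, its lowest Control library, was removed (adjusted p = 0.0138). Eif2ak2, the kinase PKR that halts translation on binding double-stranded RNA, stood at 14.8 ± 0.333 and 13.1 ± 1.39 CPM (-0.18 ± 0.07, adjusted p = 0.140). Its Control libraries lay within 14.4 to 15.2 CPM, and HFpEF 2 at 15.5 CPM was above them all. Without HFpEF 2, Eif2ak2 was called (-0.25, adjusted p = 0.0221). The low-count sensors Dhx58 (-0.43 ± 0.18) and Zbp1 (-0.53 ± 0.26), with group means of 1.01 to 1.53 CPM, had wide errors.

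Oligoadenylate synthetases make the messenger that activates the ribonuclease RNase L, and the OAS-like proteins are relatives of them. Of the 5 genes, 0 were called by edgeR, 2 had an unadjusted p below 0.05, and 4 had values below 0. Oas2 stood at 18.0 ± 2.69 in Control against 14.4 ± 2.67 CPM in HFpEF (SD, n = 5; -0.33 ± 0.13, adjusted p = 0.181), and Oasl2 at 15.8 ± 1.73 and 12.7 ± 2.17 CPM (-0.32 ± 0.11, adjusted p = 0.114). HFpEF 2 was within the Control range for both, at 18.8 and 15.6 CPM. HFpEF 5 was too, at 14.5 and 13.4 CPM, just above the lowest Control libraries at 14 and 13.3 CPM. Without HFpEF 2, Oas2 (-0.44, adjusted p = 0.0315) and Oasl2 (-0.41, adjusted p = 0.0372) were called. Oas1a (-0.31 ± 0.22), Oas3 (-0.49 ± 0.30) and Oasl1 (0.11 ± 0.23) were low, with group means of 0.311 to 2.28 CPM. Without HFpEF 2 their log2 fold changes were -0.48, -0.72 and -0.13, and without Control 5 they were -0.19, -0.29 and 0.28. All of them lie on chromosome 5.

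IFIT proteins bind viral RNA with foreign ends and block its translation, and the 3 genes lie within 1 cluster on chromosome 19. By edgeR 0 were called and 2 had an unadjusted p below 0.05. Ifit1 measured 7.5, 9.80, 7.42, 7.47 and 8.50 CPM in Control 1 to 5 and 6.20, 9.10, 6.98, 5.56 and 5.44 CPM in HFpEF 1 to 5. Ifit2 stood at 15.1 ± 1.02 and 12.9 ± 2.02 CPM and Ifit3 at 6.33 ± 0.342 and 5.31 ± 1.61 CPM (SD, n = 5). In each case 4 HFpEF libraries lay below the lowest Control library, and HFpEF 2 lay within the Control range or, for Ifit3, above it. The log2 fold changes were -0.29 ± 0.13 for Ifit1, -0.22 ± 0.09 for Ifit2 and -0.25 ± 0.15 for Ifit3 (SE), with adjusted p values of 0.237, 0.175 and 0.378. Without HFpEF 2 they were -0.43, -0.31 and -0.46, with adjusted p values of 0.0325, 0.0324 and 0.0127.

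In the group of restriction factors 3 of 8 fell and 0 were called higher. Mx1, which had low counts and was not called, had the highest log2 fold change of the 38. BST2, or tetherin, holds budding virus at the cell surface. Bst2 (chromosome 8, 71534255 to 71537456, minus strand) measured 3.57, 4.5, 3.27, 3.48 and 4.5 CPM in Control 1 to 5 and 2.72, 3.30, 2.37, 2.73 and 2.57 CPM in HFpEF 1 to 5. HFpEF 2 was level with Control 3, and the other HFpEF libraries lay lower than all Control libraries. The log2 fold change was -0.50 ± 0.12 (SE, adjusted p = 0.0291). Removing any of Control 2, Control 5 and HFpEF 3, 4 and 5 ended the call of Bst2, at adjusted p values of at most 0.084.

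Sp100 encodes a nuclear body protein that represses incoming viral DNA. Sp100 (chromosome 1, 85649988 to 85709998, plus strand) measured 38.9, 40.0, 40.3, 37.3 and 38.2 CPM in Control 1 to 5 and 35.9, 34.7, 32.1, 29.3 and 34.4 CPM in HFpEF 1 to 5. The groups did not overlap, and the log2 fold change of Sp100 was -0.23 ± 0.05 (SE, adjusted p = 0.0263), the smallest among the called members. Removing any of Control 1, 2 and 3 and HFpEF 3 and 4 ended it, at adjusted p values of at most 0.0745.

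Mx2 is a dynamin-like GTPase gene that GENCODE M21 lists as a polymorphic pseudogene, since its coding sequence is disrupted in some inbred strains. Mx2 (chromosome 16, 97535308 to 97560900, plus strand) measured 2.14, 2.34, 1.79, 1.81 and 2.25 CPM in Control 1 to 5 and 1.66, 1.5, 1.53, 1.40 and 0.958 CPM in HFpEF 1 to 5. HFpEF 5 was lowest and the groups did not overlap. The log2 fold change was -0.55 ± 0.15 (SE, adjusted p = 0.0468). This call was the least firm: it was made in 1 of the 10 fits with a library removed, the one lacking HFpEF 1, and its adjusted p reached 0.111.

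Rsad2 (viperin, which makes a chain-terminating nucleotide) and Cmpk2 (a mitochondrial nucleotide kinase) are neighbours on chromosome 12 and were not called. Rsad2 measured 13.9, 15.4, 16.1, 12.8 and 15.7 CPM in Control 1 to 5 and 16.1, 19.1, 16.8, 14.0 and 15.6 CPM in HFpEF 1 to 5. The groups overlapped, and HFpEF 2 was the highest library. Its log2 fold change was 0.14 with a 95% interval from -0.03 to 0.32. Cmpk2 stood at 7.30 ± 1.06 and 7.39 ± 1.43 CPM, with a log2 fold change of 0.01 and an interval from -0.26 to 0.29. Without HFpEF 2, Rsad2 was at 0.08 and Cmpk2 at -0.09. The lower limit for Rsad2 lies above the estimates of all 8 called members, which their low values picked out. It also lies above those of Trim25 (-0.04) and Dtx3l (-0.05), which were not called. No difference between genes was tested.

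Mx1, the other Mx gene, was close to the lower limit of detection at 0.135 to 0.757 CPM, and its log2 fold change of 0.19 had an interval from -0.61 to 1.00, and it ran from -0.04 to 0.61 over the fits with 1 library removed. Trim30a stood at 15.1 ± 1.48 and 13.2 ± 1.2 CPM (-0.20 ± 0.08, adjusted p = 0.163). Samd9l, a translation inhibitor, stood at 27.7 ± 2.49 and 26.6 ± 2.85 CPM (-0.06 ± 0.08, adjusted p = 0.731), and its log2 fold change was -0.11 without HFpEF 2.

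PARP proteins attach ADP-ribose to other proteins, and DTX3L is the ubiquitin ligase that works as a pair with PARP9. Parp14 fell and the other 3 were not called. Parp14 (chromosome 16, 35832874 to 35871544, minus strand) measured 61.1, 60, 64.4, 58.8 and 69.8 CPM in Control 1 to 5 and 52.0, 54.5, 49.1, 41.7 and 50.2 CPM in HFpEF 1 to 5. The groups did not overlap, with HFpEF 4 lowest and Control 5 highest. The log2 fold change was -0.34 ± 0.07 (SE, adjusted p = 0.00913). Parp14 had the highest CPM of the 38 genes.

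Parp9 and Dtx3l lie head to head on chromosome 16 and share exonic bases on opposite strands (9.40% of those of Parp9 and 8% of those of Dtx3l). Parp9 stood at 16.5 ± 0.897 in Control against 14.3 ± 1.44 CPM in HFpEF (SD, n = 5; -0.20 ± 0.07, adjusted p = 0.116), and Dtx3l at 28.3 ± 2.53 and 27.2 ± 2.74 CPM (-0.05 ± 0.07, adjusted p = 0.738; -0.12 without HFpEF 2). Parp12, another ADP-ribosyltransferase gene, stood at 23.7 ± 1.00 and 21.1 ± 0.885 CPM (-0.16 ± 0.05, adjusted p = 0.0699). Parp12 was called with upper-quartile scaling and with the stricter filter, both in the same direction.

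The remaining 5 induced genes hold the largest change among the 38; 1 of them fell. Ifi27l2a, the mouse relative of IFI27, a small hydrophobic protein of mitochondria and the nuclear envelope, lies on chromosome 12 (103442167 to 103443680, minus strand). It measured 4.67, 6.90, 5.59, 5.40 and 8.25 CPM in Control 1 to 5 and 2.79, 4.36, 3.44, 3.83 and 3.37 CPM in HFpEF 1 to 5. All HFpEF libraries lay below all Control libraries, and Control 5 was highest. The log2 fold change was -0.80 ± 0.16 (SE, adjusted p = 0.00967), and it ranged from -0.88 to -0.66 over the fits without 1 library.

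Ifi35 did not overlap between the groups either (7.97, 7.23, 7.13, 6.64 and 7.55 CPM in Control against 6.39, 6.39, 5.26, 6.13 and 6.49 CPM in HFpEF), but missed the threshold (-0.25 ± 0.08, adjusted p = 0.0788). It shares 16.8% of its exonic bases with Gm11626 on the opposite strand. Xaf1, a promoter of cell death, stood at 17.0 ± 1.04 and 14.7 ± 1.57 CPM (-0.21 ± 0.07, adjusted p = 0.105), Rtp4, a chaperone of receptors, at 5.83 ± 1.03 and 4.53 ± 0.888 CPM (-0.37 ± 0.14, adjusted p = 0.147), and Ifi44 at 6.11 ± 0.518 and 5.45 ± 1.17 CPM (-0.16 ± 0.12, adjusted p = 0.487). Ifi44 stood at -0.29 without HFpEF 2 (adjusted p = 0.119) and at -0.08 without HFpEF 4. Without HFpEF 2, Xaf1 (-0.27, adjusted p = 0.03) and Rtp4 (-0.49, adjusted p = 0.0468) were called. Rtp4 shares 13.9% of its exonic bases with Gm45338 on the same strand.

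**Figure D4:**
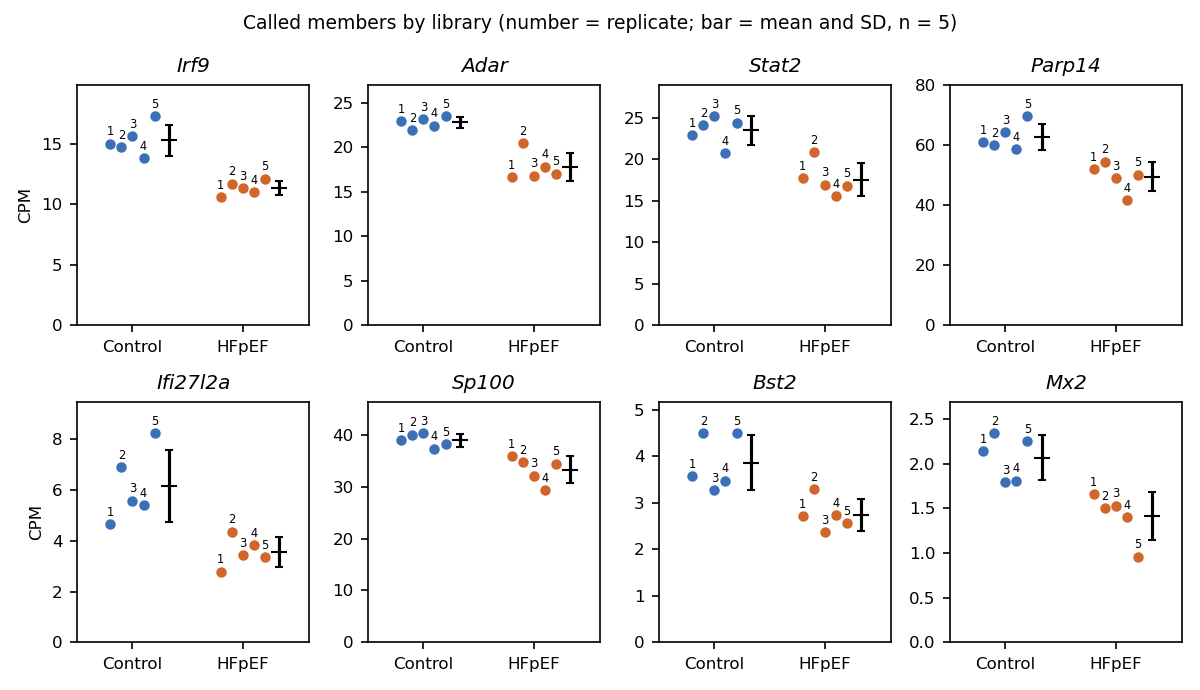
CPM (y axis, from 0) of the 8 genes called lower, in each Control (blue) and HFpEF (orange) library, numbered by replicate, with the mean and SD (n = 5) as bars. HFpEF 2 is the highest HFpEF library for Adar, Stat2, Parp14, Ifi27l2a and Bst2.

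The 38 genes varied together from library to library within a group. The mean Pearson correlation between pairs of them, computed on deviations of log2 CPM from the group means, was 0.52, and 673 of the 703 pairs were positive; the mean over all pairs of genes tested was 0.00, and over the 10 macrophage markers 0.74 (0.54 without Control 5), higher than over the 38. These points share libraries and depth, so the values are a description. Without HFpEF 2 the mean was 0.32 and 573 pairs were positive. Leaving out any other library gave a mean from 0.49 to 0.57. Herc6 (0.69), Ifi44 (0.68), Stat2 (0.65) and Ifit2 (0.65) varied most closely with the rest, and Trim25 (0.14), Ifi35 (0.22) and Mx2 (0.23) least.

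Levels between genes were compared as CPM per kilobase of merged exons in GENCODE M21. Ifi27l2a was the highest at 13.3 ± 3.06 in Control (SD, n = 5), followed by Trim25 at 6.96 ± 0.389 and Parp14 at 6.75 ± 0.475. The lowest were Oas3 at 0.0610 ± 0.0179 and Mx1 at 0.108 ± 0.0651, and the median gene stood at 2.98. For 32 of the 37 neighbouring pairs in this order the ranges of the Control libraries overlapped. The gaps lay below Ifi27l2a, Parp14, Parp12, Ifi44 and Zbp1. In HFpEF Ifi27l2a was still the highest (7.68 ± 1.26), and the called genes were spread over the order from first to 33rd place.

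Upstream of the members, little was called. No interferon gene could be tested: of the 20 ligand genes in the table, 15 had 0 counts in every library (Ifnb1 among them), where 3 counts, the limit that a count of 0 allows, are 0.0598 to 0.0999 CPM. Ifnk, the ligand gene with the most reads, had 18 counts in Control and 11 in HFpEF over all libraries. Of 9 receptor and kinase genes 0 were called by edgeR, and 1 had an unadjusted p below 0.05, with a higher value. Ifnar1 (-0.11 ± 0.06), Ifnar2 (-0.05 ± 0.06), Jak1 (-0.05 ± 0.04) and Tyk2 (-0.10 ± 0.06), which form the type I receptor and its kinases, had 95% intervals within -0.24 to 0.09.

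Irf3, the factor that switches on interferon genes after sensing, had a log2 fold change of -0.06 ± 0.05 (SE, adjusted p = 0.519) and was not called.

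Of 14 sensors and adaptors 1 fell, Tmem173, which encodes STING, the adaptor of cytosolic DNA sensing. Tmem173 averaged 4.58 ± 0.514 in Control against 3.24 ± 0.306 CPM in HFpEF (SD, n = 5; -0.50 ± 0.10, adjusted p = 0.0114), with no overlap between the groups, and stayed called in all 10 fits without 1 library. Of 12 negative regulators 0 were called by edgeR, and of the 4 with an unadjusted p below 0.05, 2 had lower and 2 had higher values.

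A further 50 tested interferon-induced genes counted 5 lower (10%), 0 higher and 45 not called, with a median log2 fold change of -0.17. They were Rnf213 (-0.25 ± 0.06, adjusted p = 0.0278), Trim21, an antibody receptor in the cytosol (-0.37 ± 0.09, adjusted p = 0.0299), Ifitm3, which blocks viral entry (-0.32 ± 0.08, adjusted p = 0.0375), Ddx60 (-0.36 ± 0.10, adjusted p = 0.0463) and Trim12a (-0.29 ± 0.08, adjusted p = 0.0487). None of these 5 calls held in all 10 fits without 1 library: Rnf213 was called in 5, Trim21 in 4 and each of the others in 2. Over all 91 tested pathway genes outside the 38, 6 were lower (6.59%) and 0 higher. Of all genes tested, 2.09% were lower and 3.24% higher.

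**Figure D5:**
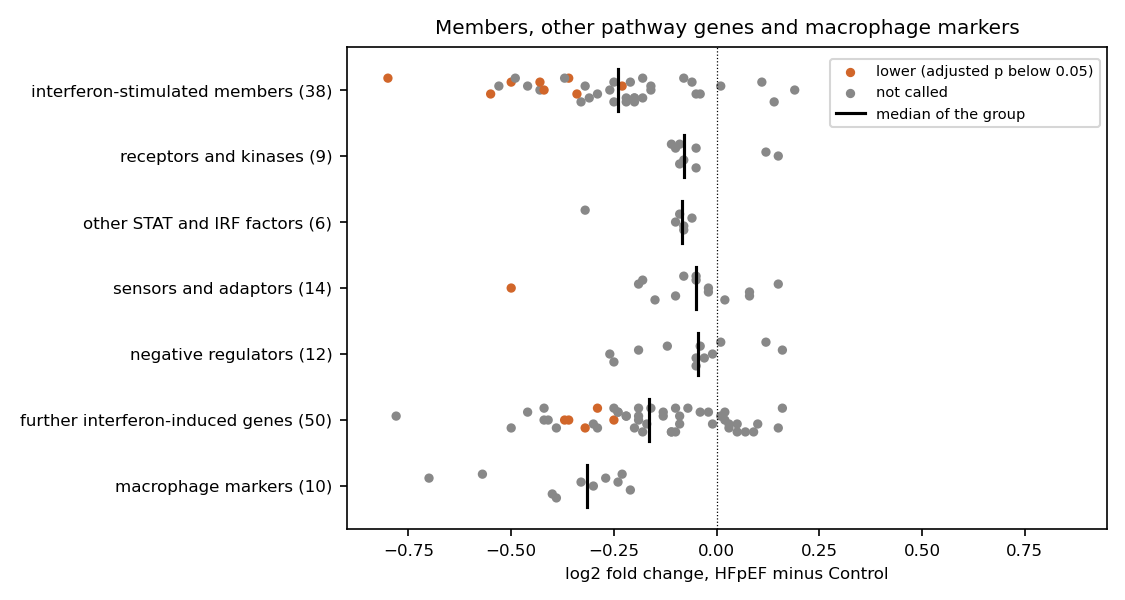
Log2 fold change (x axis) of each tested gene, for the 38 interferon-stimulated genes, 5 groups of other pathway genes and 10 macrophage markers, with the number of genes in brackets and the group median as a black line. Orange marks genes called lower; the medians lie at -0.24 for the 38 genes and nearer 0 for receptors, factors, sensors and regulators.

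The log2 fold changes of the 10 macrophage markers had a median of -0.32 and ran from -0.70 to -0.21, with 7 at an unadjusted p below 0.05 and 0 called by edgeR. Lyz2, the most expressed, stood at 47.2 in Control against 29.2 CPM in HFpEF. Control 5 was highest for the markers (median deviation 0.43) and HFpEF 2 the highest of the HFpEF libraries (-0.15 against -0.50 to -0.28), the same libraries that were high for the interferon-stimulated genes. For the other cell types the summed levels overlapped between the groups, apart from the atrial list. Its sum, on average 50.3 CPM in Control and 22.6 CPM in HFpEF, was mostly Nppa (49.3 and 21.6 CPM). Only 2 of the 5 atrial genes passed the filter on low counts, and Myl4 was not called (-0.11 ± 0.25, adjusted p = 0.853). Endothelial markers summed to 1070 to 1250 CPM in Control and 1000 to 1210 CPM in HFpEF (Fabp4 the most expressed), with Emcn called lower (-0.27 ± 0.07, adjusted p = 0.0447). The other 6 endothelial markers were not called, and 2 of the 7 had values above 0. Fibroblast markers summed to 372 to 467 and 425 to 463 CPM (Dcn), smooth muscle and pericyte markers to 691 to 806 and 746 to 853 CPM (Rgs5), and erythroid genes to 439 to 634 and 411 to 711 CPM (Hba-a2). Plasmacytoid dendritic cell markers, from the cells that secrete most interferon in infection, summed to 4.24 to 5.06 and 3.30 to 5.35 CPM, mostly from Ccr9. Monocyte and neutrophil markers (5.30 to 8.64 and 5.00 to 11.8 CPM, Ccr2), T and NK cell markers (1.49 to 2.07 and 1.40 to 2.35 CPM, Cd4) and adipocyte markers (0.238 to 1.04 and 0.0973 to 0.654 CPM, Cfd) were low. Called lower among the markers were also Csf3r of neutrophils (-0.81 ± 0.22, adjusted p = 0.0479), Tnnt2 of heart muscle (-0.22 ± 0.05, adjusted p = 0.0185) and Nppa (-1.19 ± 0.22, adjusted p = 0.0187), which led the atrial list (37.3 to 58.4 and 15.3 to 29.3 CPM). In the list of Csf3r, Ccr2 had a higher value and was not called (0.85 ± 0.37, adjusted p = 0.237). Of the 6 heart muscle markers 5 were not called, and 2 had values above 0. Their sums were 23400 to 25000 CPM in Control and 22500 to 24200 CPM in HFpEF. Of the 10 fits with a library removed, Nppa was called in 10, Tnnt2 in 7, and Emcn and Csf3r in 2 each. Voom did not call Csf3r (adjusted p = 0.056), and without both Control 4 and Control 5, removed together after the data were seen, neither Csf3r (adjusted p = 0.223) nor Nppa was called. The part of these markers in the result was not tested.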

How the data were processed

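RNA-seq of 10 left ventricle libraries was used. Per the labels' protocols, ribosomal RNA was depleted from total RNA before libraries were built; no source used here gives the strand. The submitters' processing notes list Bowtie2 2.1.0, RSEM 1.2.15 and the build mm10. The values the authors deposited are expected counts per gene, not normalized; they are whole numbers, so rounding changed none. The 92 ERCC sequences had no gene and were left out.

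Genes were filtered with edgeR's filterByExpr (minimum count 10, 18491 genes left) and tested with edgeR 4.0.16 in R 4.3.3 (TMM, robust quasi-likelihood fit, group as the sole term, Benjamini-Hochberg adjustment at 0.05), after a check on simulated data. SE is the absolute log2 fold change over the root of F. Alternatives were RLE and upper-quartile scaling, DESeq2 1.42.0, voom (limma 3.58.1), other filters, no mitochondrial transcripts, a replicate block and leaving out libraries. Log2 CPM for deviations and correlations used a prior count of 1. Identifiers of 36 members matched GENCODE M21 with their version and 2 by another version. Promoter sequences read in the direction of the gene in 31 of 34 windows checked against its transcripts, and in 0 the other way.

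The members and lists were chosen with earlier results of these data known. The rule for naming took all 38 members, called pathway genes with Ifnar1, Ifnar2, Jak1, Tyk2 and Irf3, and the most expressed and called markers; some genes that the rule names are not reported here. No 2 libraries of a group were alike within counting error.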

Additional observations from a re-analysis of the deposited data

Results flagged for a closer look

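In groups of 5 libraries, a value was looked at again where its gap to the nearest other library was over 0.71 of the range of the group. This held for 8 of the 76 groups examined, against 3.8 that chance gives at 1 in 20, and in 7 of the 8 the library was HFpEF 2, as the highest. It stood at 8.73 CPM for Irf7 (others 5.10 to 5.90), 15.3 for Herc6 (others 11 to 12.2), 15.5 for Eif2ak2 (others 12 to 12.9) and 1.96 for Oasl1 (others 0.999 to 1.1). It also stood at 8.07 CPM for Ifit3 (others 3.93 to 5.07), 0.717 for Mx1 (others 0.389 to 0.438) and 32 for Dtx3l (others 25.3 to 27.2). Control 5 stood at 9.14 CPM for Cmpk2, with the other Control libraries between 6.48 and 7.14. The genes vary together, so these are not separate events.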

How the results depend on the processing

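The number of members called lower ran from 5 to 16 over the fits without 1 library, with 16 without HFpEF 2 and 5 without Control 2, HFpEF 3 or HFpEF 4. It was 8 or 9 in the other settings, or 7 without the 2 deepest libraries, Control 4 and Control 5, an alternative chosen after seeing the data. No member was called higher in any of these fits, and the median log2 fold change lay between -0.30 and -0.18. Calls over all genes ran from 554 (without HFpEF 3) to 1101 (without HFpEF 1) over the fits without 1 library, with 630 without Control 1 and 633 without HFpEF 4. Those called lower were 1.08% (without HFpEF 3) to 2.23% (without HFpEF 1) of all genes tested in these fits. The cause was not tested.

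With the replicate number as a block, 8 members were lower (Oas2 was called in place of Mx2) and 744 genes were called in all; of the markers, Nppa (adjusted p = 0.103) and Tnnt2 (adjusted p = 0.0573) were not called. Same-numbered libraries did not deviate together over all genes tested (correlations from -0.11 to 0.06, and 2 of 5 Control libraries were closest to their own number). Such correlations cannot tell whether same-numbered samples share a batch that acts on some genes. Signs turned only for genes that were not called, with values near 0 (Cmpk2 and Ifnar2) or low counts (Mx1 and Oasl1). Cmpk2 lay between -0.09 and 0.12 over the fits without 1 library and at -0.00 with voom, Mx1 between -0.04 and 0.61, Oasl1 between -0.13 and 0.28, and Ifnar2 between -0.08 and 0.00, with 0.01 without the 2 deepest libraries. Without the 2 deepest libraries Bst2 (adjusted p = 0.0846) and Mx2 (adjusted p = 0.0954) were not called, and Ifih1 was (adjusted p = 0.0302). DESeq2 gave no adjusted p for Mx1 and Oas3, and 6 members failed the stricter filter.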
